A study of Macaca mulatta with 10 samples.

Results

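Fat is stored in cells as triacylglycerol inside lipid droplets, and 10 genes of lipolysis and of the droplet coat were examined in adipose tissue and skeletal muscle of rhesus monkeys. They are the lipases and their coactivator (*PNPLA2*, *LIPE*, *MGLL* and *ABHD5*), the droplet coat proteins *PLIN1*, *PLIN2*, *PLIN4* and *PLIN5*, the droplet fusion protein *CIDEC*, and *PDE3B*, the phosphodiesterase through which insulin restrains lipolysis. Members were found by matching the Ensembl macaque gene identifiers to symbols, and 9 of the 10 were matched among 28595 genes, of which 15556 had a symbol. *PNPLA2*, the triacylglycerol lipase of the first step, was not analysed here. The RNA-Seq libraries came from 5 male rhesus monkeys. The case was a hyperinsulinemic monkey (rhesus_950807), which had extremely high insulin, was obese and insulin resistant, and carried a heterozygous nonsense mutation of *PRKD2*. The controls were rhesus_920401, rhesus_940129, rhesus_940313 and rhesus_950509, named controls 1, 2, 3 and 4 in that order, kept in the same facility on the same chow diet. Each animal gave 1 library of adipose tissue and 1 of skeletal muscle, 10 libraries in all, and with 1 hyperinsulinemic animal no difference can be separated from what is particular to that monkey.

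Lipolysis runs in steps. *PNPLA2*, activated by *ABHD5*, takes the first fatty acid off triacylglycerol, hormone-sensitive lipase (*LIPE*) acts on the diacylglycerol, and *MGLL* cleaves the remaining monoacylglycerol. In the fat cell perilipin 1 (*PLIN1*) coats the droplet and holds *ABHD5* back until protein kinase A phosphorylates it, so that catecholamines, acting through cyclic AMP, start lipolysis, and insulin, acting through *PDE3B*, which breaks cyclic AMP down, stops it. Muscle fibers keep small droplets that are coated mainly by other perilipins, with *PLIN5* linking the droplet to mitochondria.

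The libraries held 41780234 mapped reads in adipose tissue of the hyperinsulinemic monkey and 30669915 to 39379286 in that of the controls, and 33961486 in muscle of the hyperinsulinemic monkey and 35682861 to 43268985 in that of the controls. Reads counted in genes were 61.4% of the mapped reads in adipose tissue of the hyperinsulinemic monkey and 48.2% to 59.4% in the controls, and 64.6% in muscle of the hyperinsulinemic monkey and 52.0% to 62.1% in the controls. Levels are given as RPKM, reads divided by the length of the transcript and the mapped total of the library, so that genes of different length can be set beside each other. Since RPKM are scaled to mapped reads, they run higher wherever a larger share of reads fell in genes, and the tests were therefore made on counts with TMM scaling, which sets the bulk of the genes level. Defining markers were present in the tissues named by the labels. *ADIPOQ*, the adipocyte hormone adiponectin, was at 726 RPKM in adipose tissue of the hyperinsulinemic monkey and 631 to 1491 RPKM in that of the controls, and the muscle actin *ACTA1* at 24384 to 34057 RPKM in all muscle libraries. *ACTA1* was also at 101 and 80.9 RPKM in the adipose libraries of controls 1 and 3, against 0.444 to 1.72 RPKM in the other 3, and *ADIPOQ* was at 6.97 RPKM in muscle of the hyperinsulinemic monkey and 2.06 to 15.4 RPKM in that of the controls. In whole tissue, fewer cells of a type and less RNA per cell cannot be told apart.

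**Figure D1:**
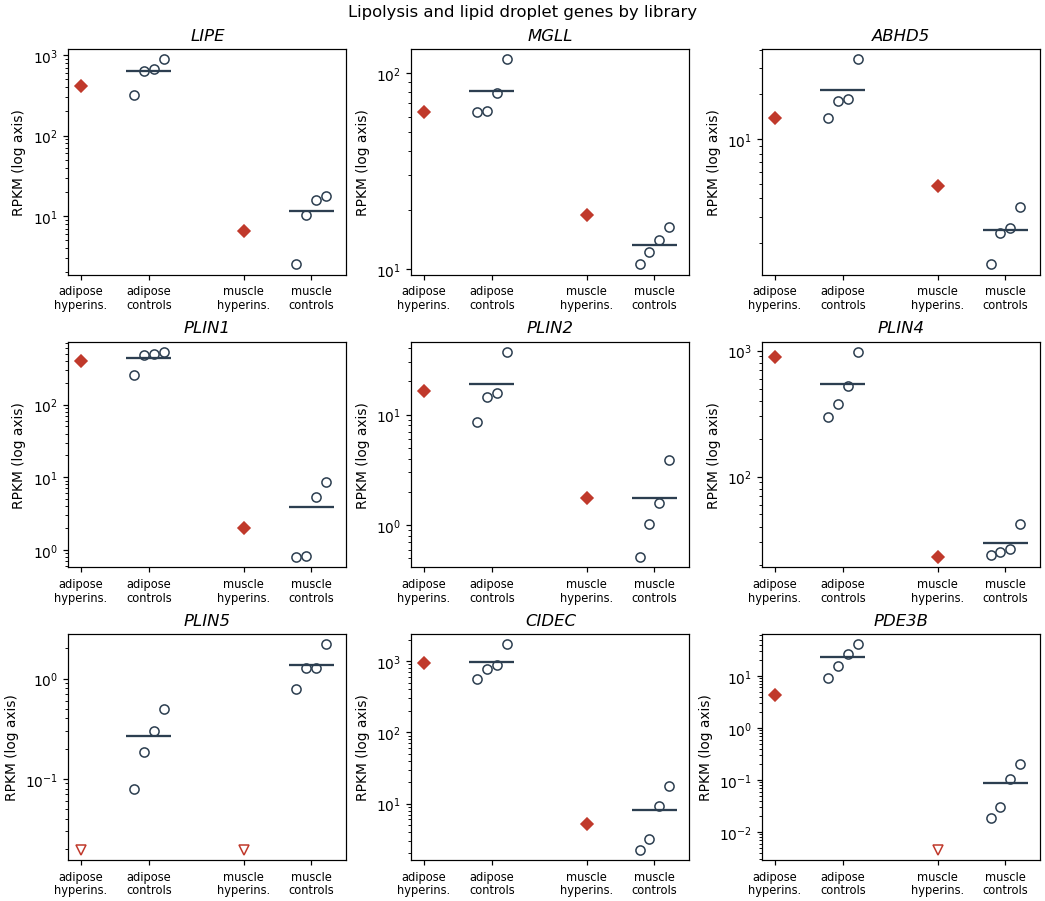
RPKM (log axis) of the 9 member genes in each library, with the hyperinsulinemic monkey as red diamonds left of the 4 controls as open circles in each tissue. Lines are control means and downward triangles at the panel foot are libraries with 0 reads. In 8 panels all adipose libraries lie above all muscle libraries. The exception is *PLIN5*, whose control libraries are higher in muscle.

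The positions below are those of the authors' files, counted from 1, in a genome build not given in the sources used here. *LIPE* (ENSMMUG00000017916) lies on chromosome 19 from 48725963 to 48752977, minus strand. *MGLL* (ENSMMUG00000000168) is placed on chromosome 11 from 87018484 to 87153652, plus strand, whereas RefSeq's later macaque assembly puts it, with the file's neighboring genes *ABTB1*, *PODXL2* and *MCM2*, on chromosome 2. *ABHD5* (ENSMMUG00000001031) lies on chromosome 2 from 92892006 to 92920664, minus strand, overlapped by an unnamed gene of the same strand that might share its reads. *PLIN4* (ENSMMUG00000022656, from 4377423 to 4386117) and *PLIN5* (ENSMMUG00000023699, from 4402375 to 4407778) lie near each other on the minus strand of chromosome 19. *PLIN1* (ENSMMUG00000017746) lies on chromosome 7 from 69293432 to 69301237, minus strand, and *PLIN2* (ENSMMUG00000013997) on chromosome 15 from 57855544 to 57859818, plus strand. *CIDEC* (ENSMMUG00000010350) lies on chromosome 2 from 51093050 to 51101233, plus strand, and *PDE3B* (ENSMMUG00000000759) on chromosome 14 from 57085008 to 57292583, minus strand. The transcripts behind *PLIN2* and *PLIN5* have only 381 and 414 bases, so their values rest on short models and few reads, while the other 7 have 1063 to 5030 bases.

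In the control monkeys adipose tissue and muscle used these genes at very different levels. In adipose tissue the mean level was 979 RPKM for *CIDEC*, 631 RPKM for *LIPE*, 544 RPKM for *PLIN4* and 444 RPKM for *PLIN1*, whose ranges over the 4 animals overlapped from each gene to the next. *MGLL* followed at 81.1 RPKM, with a range below that of *PLIN1* and above that of *PDE3B*. *PDE3B* (22.7 RPKM), *ABHD5* (21.3 RPKM) and *PLIN2* (18.9 RPKM) overlapped, and *PLIN5* was at 0.265 RPKM, on 1 to 8 reads. In muscle the order was another one. *PLIN4* led with 29.4 RPKM and did not overlap with *MGLL* at 13.3 RPKM. *LIPE* (11.7 RPKM), *CIDEC* (8.08 RPKM), *PLIN1* (3.85 RPKM), *ABHD5* (2.45 RPKM), *PLIN2* (1.75 RPKM) and *PLIN5* (1.38 RPKM) each overlapped with the next, and *PDE3B* was at 0.0893 RPKM, on 4 to 37 reads.

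All 9 members passed the test between the tissues of the controls, 8 higher in adipose tissue and 1, *PLIN5*, higher in muscle. This was a common outcome, since 6237 of 12253 genes (50.9%) were called at an adjusted p under 0.05 and an absolute log2 difference of at least 1, 29.3% higher in adipose tissue and 21.6% higher in muscle. The median log2 difference was 2.73 over the 9 members and 0.30 over all genes tested. By edgeR's quasi-likelihood test, two-sided, the log2 difference was 6.61 for *PDE3B* (standard error 0.730, adjusted p = 1.26e-05), 5.46 for *CIDEC* (0.690, adjusted p = 3.62e-05) and 5.37 for *PLIN1* (0.756, adjusted p = 8.33e-05). It was 4.30 for *LIPE* (standard error 0.586, adjusted p = 6.53e-05) and 2.73 for *PLIN4* (0.393, adjusted p = 9.99e-05). The smaller differences belonged to *PLIN2* with 1.92 (standard error 0.640, adjusted p = 0.0212), *ABHD5* with 1.69 (0.350, adjusted p = 0.00133) and *MGLL* with 1.17 (0.270, adjusted p = 0.00267). *PLIN5* stood at −3.73 (standard error 0.818, adjusted p = 0.00197). On the RPKM scale adipose tissue and muscle did not overlap for any of the 9, and every control animal had the same direction. Two-sided exact permutation of libraries, unpaired although each animal gave both tissues, gave p = 0.0286 each, the lowest possible with 4 against 4.

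These differences depend in size on the scaling. Scaled to the mapped totals, the median of all genes moved to 1.73, 90.3% of the genes called were higher in adipose tissue in place of 57.7%, and the members moved by 1.40 to 1.5 on the log2 scale, so that *MGLL* stood at 2.61 and *PLIN5* at −2.33, with all 9 still called in the same direction. The calls of *MGLL* and *PLIN2* were not firm. Without control 2 the difference of *MGLL* was 0.79, below the limit of 1, and *PLIN2* missed the threshold without control 2, 3 or 4 (adjusted p of 0.0584, 0.0510 and 0.0645) and without the adipose libraries of controls 1 and 3 (adjusted p = 0.118, of 0.000606 to 0.118 over all settings tried).

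In the hyperinsulinemic monkey none of the members was called different from the controls in either tissue. edgeR called 0 of 11981 genes in adipose tissue and 0 of 8306 in muscle (0% each), with 286 and 754 genes at an unadjusted p under 0.05, and DESeq2 called 11 and 88, none of them a member. The intervals were wide. After TMM scaling 3 of the 8 members tested in adipose tissue (*MGLL*, *ABHD5* and *PDE3B*) lay below all 4 controls and none above, where 14.3% of all genes tested lay below and 15.7% above. In muscle 2 of 8 (*PLIN4* and *PLIN5*) lay below all controls and 2 (*MGLL* and *ABHD5*) above, where 23.8% of all genes lay below and 24.3% above. *PLIN5* had 0 reads in muscle of the hyperinsulinemic monkey and passed the filter only through the controls. It enters this count and the muscle median below. The median log2 difference of the members tested was −0.46 in adipose tissue and −0.70 in muscle, against −0.06 and −0.03 over all genes tested. Over the 8 adipocyte markers, none of them a member, the median in adipose tissue was −0.61.

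**Figure D2:**
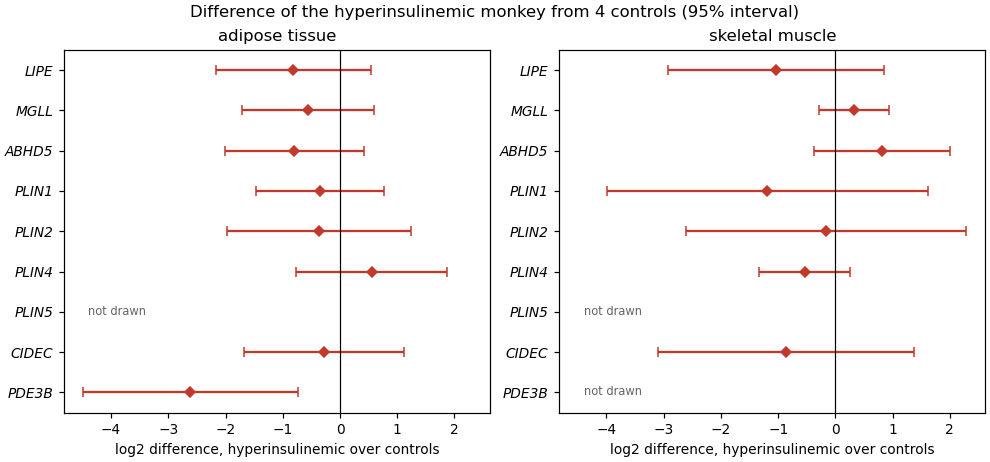
Log2 difference of the hyperinsulinemic monkey from the 4 controls with its 95% interval (edgeR) for each member, adipose tissue left and skeletal muscle right. The interval of *PDE3B* in adipose tissue, −4.49 to −0.74, is the one that leaves out 0 among those drawn. *PLIN5* in both tissues and *PDE3B* in muscle are not drawn, since the hyperinsulinemic monkey had 0 reads.

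Among the lipases, *LIPE* was at 410 RPKM in adipose tissue of the hyperinsulinemic monkey, against 636, 889, 318 and 680 RPKM in controls 1 to 4. Values of the 4 controls are given in that order throughout. It lay below 3 controls and above control 3. On the log2 scale the difference was −0.81 (standard error 0.604, 95% interval −2.16 to 0.53, edgeR adjusted p = 0.9999). In muscle *LIPE* was at 6.53 RPKM in the hyperinsulinemic monkey, against 16.0, 10.2, 2.51 and 17.9 RPKM in the controls, again between control 3 and the other 3. This was a difference of −1.04 on the log2 scale (standard error 0.841, 95% interval −2.93 to 0.85, adjusted p = 0.745). The controls themselves spanned 2.79-fold in adipose tissue and 7.14-fold in muscle.

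*MGLL*, which also degrades an endocannabinoid, was the steadiest member in control muscle, where it spanned 1.55-fold, and leaned opposite ways in the tissues of the hyperinsulinemic monkey without passing a test. Adipose tissue held 63.6 RPKM in the hyperinsulinemic monkey, against 64.1, 118, 63.2 and 79.2 RPKM in the controls, and muscle held 18.7 RPKM in the hyperinsulinemic monkey, against 16.3, 12.2, 14.0 and 10.5 RPKM. It was the highest of the 5 animals in muscle (two-sided exact permutation p = 0.2, the lowest possible with 1 animal against 4), and in adipose tissue it lay just above control 3 in RPKM and below all controls after TMM scaling. The log2 difference was −0.56 (standard error 0.517) in adipose tissue and 0.33 (standard error 0.274) in muscle.

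*ABHD5*, the coactivator of *PNPLA2*, showed the same opposite directions at a larger size. Adipose tissue held 13.9 RPKM in the hyperinsulinemic monkey, against 18.5, 18.1, 13.9 and 34.5 RPKM in the controls. Muscle held 4.87 RPKM in the hyperinsulinemic monkey, against 2.33, 3.52, 1.43 and 2.52 RPKM in the controls. In muscle the hyperinsulinemic monkey was thus above every control, with 224 reads (exact Poisson 95% interval 196 to 255, counting error only) against 84 to 170. Fitted log2 differences were −0.80 in adipose tissue (standard error 0.547, 95% interval −2.02 to 0.42) and 0.81 in muscle (standard error 0.527, 95% interval −0.37 to 2.0, adjusted p = 0.674). The difference between these effects, adipose tissue minus muscle, was −1.59 (standard error 0.774, 95% interval −3.28 to 0.09, edgeR adjusted p = 0.907). It was the smallest p among the 7 members that could be tested for it, and edgeR called 0 of 7938 genes (0%) in that comparison, with 434 at an unadjusted p under 0.05 and 16 called by DESeq2. The ratio of *ABHD5* to *PLIN1*, its partner on the resting droplet, was 0.0352 in adipose tissue of the hyperinsulinemic monkey and 0.0347 to 0.0714 in the controls, and 2.47 in muscle of the hyperinsulinemic monkey and 0.296 to 4.43 in the controls, within the range of the controls in both.

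Among the droplet coat proteins, *PLIN1* was at 395 RPKM in adipose tissue of the hyperinsulinemic monkey, against 535, 499, 258 and 484 RPKM in the controls. In muscle it was at 1.97 RPKM, against 5.28, 0.793, 0.833 and 8.51 RPKM, and the controls spanned 10.7-fold. Both values of the hyperinsulinemic monkey lay inside the control range. Log2 differences were −0.35 (standard error 0.499) in adipose tissue and −1.19 (standard error 1.25, 95% interval −3.99 to 1.62) in muscle.

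*PLIN2*, the perilipin of most cell types, was at 16.3 RPKM in adipose tissue of the hyperinsulinemic monkey, against 37.0, 14.3, 8.65 and 15.5 RPKM in the controls, and at 1.78 RPKM in muscle, against 3.87, 0.515, 1.03 and 1.59 RPKM. Its counts were small, 259 reads in adipose tissue and 23 in muscle of the hyperinsulinemic monkey. Control 1 was the highest library in both tissues. The log2 difference was −0.37 in adipose tissue and −0.16 in muscle, and turned to 0.12 and 0.55 without that animal.

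*PLIN4*, which coats newly formed droplets, was at 895 RPKM in adipose tissue of the hyperinsulinemic monkey, against 979, 520, 299 and 377 RPKM in the controls. It was the member with a positive difference in adipose tissue, 0.55 on the log2 scale (standard error 0.590, 95% interval −0.76 to 1.87), below control 1 and above the other 3. The same 2 animals, the hyperinsulinemic monkey and control 1, were also high in *PLIN3*, with 21.5 RPKM in the hyperinsulinemic monkey and 22.7 RPKM in control 1, against 3.87 to 7.17 RPKM in the other controls. They were high in the hormone gene *LEP*, with 1631 RPKM in the hyperinsulinemic monkey and 2209 RPKM in control 1, against 461 to 1303 RPKM. They were also high in the macrophage gene *CD68*, with 127 and 114 RPKM, against 17.5 to 43.7 RPKM. *LEP* was the 1 of 8 adipocyte markers with a log2 difference above 0 in adipose tissue (0.35), and 7 were below 0. The part of *PLIN3*, *LEP* and *CD68* in the level of *PLIN4* was not tested. In muscle *PLIN4* was at 23.0 RPKM in the hyperinsulinemic monkey, just below the controls with 41.9, 26.7, 23.8 and 25.3 RPKM, and the log2 difference was −0.53 (standard error 0.355) and −0.33 without control 1.

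*PLIN5*, the perilipin of oxidative tissues, had 0 reads in both libraries of the hyperinsulinemic monkey. In muscle the 4 controls had 35, 19, 14 and 19 reads, or 1.38 ± 0.587 RPKM (SD, n = 4). A count of 0 allows up to 3 reads, or 0.213 RPKM, so the level of the hyperinsulinemic monkey was at least 6.47-fold lower than the control mean. The gene was not called by edgeR or DESeq2 in any setting in which it could be fitted. It passed the filter of a mean of 1 RPKM only through the controls, so its test could not serve as evidence of a difference. Markers of slow, oxidative fibers were lower in the same library, with a summed level of 119 RPKM over 7 genes in the hyperinsulinemic monkey and 503 to 4661 RPKM in the controls, and *MYH7*, the slow myosin, at 12.9 RPKM against 45.5 to 531 RPKM. Their part in the level of *PLIN5* was not tested. In adipose tissue the controls had only 4, 1, 8 and 3 reads of *PLIN5*, so the 0 of the hyperinsulinemic monkey could not show a difference at this depth.

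The perilipins in adipose tissue of the hyperinsulinemic monkey held relatively more *PLIN4* and less *PLIN1* than in any control. As a share of the summed RPKM of *PLIN1* to *PLIN5*, *PLIN4* made 67.4% in the hyperinsulinemic monkey, against 51.9 ± 8.05% (SD, n = 4) in the controls (42.7% to 62.2%). *PLIN1* made 29.8% in the hyperinsulinemic monkey, against 45.5 ± 8.67% in the controls (34.0% to 54.8%). Both shares lay outside the control range (two-sided exact permutation p = 0.2, the lowest possible with 1 animal against 4). They make up nearly all of the sum, so they are not independent of each other. In RPKM *PLIN4* and *PLIN1* each lay inside the control range. The ratio of *PLIN4* to *PLIN1*, looked at after the values were seen, was 2.26 in the hyperinsulinemic monkey and 0.780 to 1.83 in the controls. Control 1 came nearest to the hyperinsulinemic monkey. In muscle *PLIN4* made 83.7% in the hyperinsulinemic monkey and 79.4 ± 9.38% in the controls, *PLIN1* 7.18% and 9.49 ± 9.40%, and *PLIN2* 6.48% and 4.18 ± 2.21%, all inside the control range. *PLIN5* made 0% in the hyperinsulinemic monkey and 3.60 ± 0.590% in the muscle of the controls. The short models of *PLIN2* and *PLIN5* limit their shares.

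**Figure D3:**
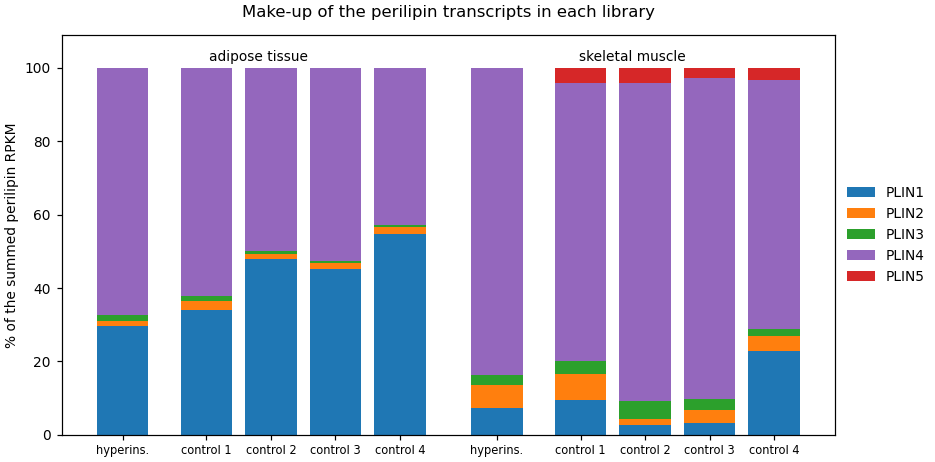
Share of each perilipin in the summed RPKM of *PLIN1* to *PLIN5* (% of the sum, 1 bar per library), with the hyperinsulinemic monkey left of the 4 controls in each tissue. *PLIN4* makes 67.4% in adipose tissue of the hyperinsulinemic monkey and at most 62.2% in the controls, and *PLIN5* is seen in the muscle bars of the 4 controls.

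*CIDEC*, which fuses droplets into the single large droplet of the fat cell, had the highest mean of the members in adipose tissue of the controls, with a range that overlapped that of *LIPE* and with *PLIN4* above it in control 1, and was not called there. It was at 928 RPKM in the hyperinsulinemic monkey, against 877, 1716, 554 and 768 RPKM in the controls, second only to control 2. The fitted difference was −0.28 on the log2 scale (standard error 0.631, 95% interval −1.69 to 1.13) and turned to 0.18 without control 2. In muscle *CIDEC* was at 5.15 RPKM in the hyperinsulinemic monkey, against 9.40, 3.22, 2.26 and 17.4 RPKM, with a log2 difference of −0.86 (standard error 0.999, 95% interval −3.11 to 1.38). The controls spanned 7.71-fold in muscle.

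*PDE3B*, the insulin-activated phosphodiesterase, had the largest difference of the members tested in adipose tissue. It was at 4.28 RPKM in the hyperinsulinemic monkey, against 8.95, 15.4, 26.2 and 40.3 RPKM in the controls, on 900 reads (exact Poisson 95% interval 842 to 961, counting error only) against 1464 to 7981. The hyperinsulinemic monkey was lower than every control, but the controls differed among themselves by 4.50-fold. The fitted level was 6.13-fold lower, a log2 difference of −2.61 (standard error 0.841, 95% interval −4.49 to −0.74), with an unadjusted p of 0.0111 and an adjusted p of 0.9999 from edgeR. DESeq2 gave an adjusted p of 0.115, the lowest of the settings tried, which reached up to 0.9999, and the log2 difference stayed between −2.90 and −2.21 in all of them. Relative to *ADIPOQ*, a ratio chosen after the values were seen, *PDE3B* was at 0.00590 in the hyperinsulinemic monkey and 0.0103 to 0.0416 in the controls. Over the 5 animals the order of *PDE3B* was the exact reverse of that of *CD68* in the same libraries. This pairing was not planned, and *CD68* is 1 of 8 macrophage markers, of which the others are not given by animal here. The hyperinsulinemic monkey had 4.28 RPKM of *PDE3B* with 127 RPKM of *CD68*. The controls had 8.95 with 114 RPKM (control 1), 15.4 with 43.7 RPKM (control 2), 26.2 with 29.4 RPKM (control 3) and 40.3 with 17.5 RPKM (control 4). Log2 differences were above 0 for all 8 macrophage markers tested in adipose tissue, none of them called, with a summed level of 725 RPKM in the hyperinsulinemic monkey against 182 to 554 RPKM in the controls. Summed levels above all controls were also seen for fibroblast markers (2561 RPKM in the hyperinsulinemic monkey against 1269 to 1956 RPKM), endothelial markers (189 RPKM against 104 to 157 RPKM) and T and NK cell markers (15.2 RPKM against 2.46 to 9.22 RPKM). After TMM scaling the median log2 difference was 0.47 over fibroblast markers and 1.5 over T and NK cell markers. Over endothelial markers it was −0.03, with 3 of 5 genes below 0. The summed level of 8 adipocyte markers was 5406 RPKM against 5341 to 7844 RPKM, and 7 of the 8 had a log2 difference below 0, with a median of −0.61. The share of mapped reads counted in genes was also highest in the hyperinsulinemic monkey (61.4%) and lower in control 4 (53.5%) and control 3 (48.2%), the controls with the most *PDE3B*. The part of these in the level of *PDE3B* was not tested. In muscle *PDE3B* had 0 reads in the hyperinsulinemic monkey and 6, 19, 4 and 37 reads in the controls, too low to pass the filter for a test. The floor of 3 reads, 0.0176 RPKM, lay just under control 3 (0.0184 RPKM), so the 0 could not be told from the lowest control.

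Since *ADIPOQ* was detected in every muscle library, each member was also set beside it. The ratios to *ADIPOQ* of *PLIN1* and *CIDEC* were planned, and those of the other members were chosen after the values were seen. In adipose tissue *PLIN1* was at 0.545 times *ADIPOQ* in the hyperinsulinemic monkey and 0.327 to 0.617 in the controls. In muscle it was at 0.283 times *ADIPOQ* in the hyperinsulinemic monkey and 0.226 to 0.641 in the controls. The ratio in muscle divided by that in adipose tissue of the same animal had a median of 0.989 over the 5 animals for *PLIN1* (0.519 to 1.69) and 1.13 for *CIDEC* (0.578 to 2.18), and the 5 muscle libraries stood in the same order for *CIDEC* as for *ADIPOQ*. In muscle these transcripts stood to the adipocyte marker much as they did in adipose tissue. The same quotient had a median of 2.53 for *LIPE* (1.66 to 4.89), 6.44 for *PLIN4* (2.67 to 24.3), 11.4 for *PLIN2* (9.80 to 36.5), 30.7 for *MGLL* (12.7 to 67.9) and 31.5 for *ABHD5* (6.98 to 82.1). For these 5 genes the muscle libraries held more per *ADIPOQ* in every animal than the adipose libraries did. For *PDE3B* it ran from 0 to 2.92, on few reads. For *PLIN5*, which had 0 reads in both tissues of the hyperinsulinemic monkey, it was 477 to 6921 in the 4 controls, on 1 to 8 reads in adipose tissue. *CIDEC* over *ADIPOQ* in the hyperinsulinemic monkey was above all controls in adipose tissue, at 1.28 against 0.520 to 1.15, and below them in muscle, at 0.739 against 0.914 to 1.14.

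**Figure D4:**
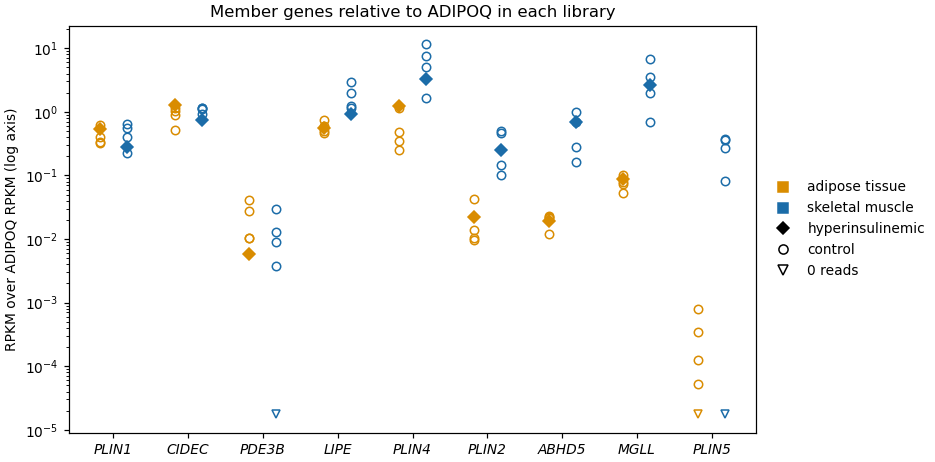
RPKM of each member divided by the RPKM of *ADIPOQ* in the same library (log axis), adipose tissue in orange left of muscle in blue, the hyperinsulinemic monkey as filled diamonds, controls as open circles and libraries with 0 reads as triangles at the foot. For *PLIN1* and *CIDEC* the tissues overlap or nearly meet, with ratios from 0.226 to 1.28, while *MGLL*, *ABHD5* and *PLIN2* are higher per *ADIPOQ* in all muscle libraries.

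By the distance between profiles of log2(RPKM + 1) over the 10 libraries, each centered on its own mean, the genes most like *PLIN1* among 8511 were *CIDEC* (0.32), *ADIPOQ* (0.38), *ALDOC* (0.53), *RBP4* (0.61) and *DGAT2* (0.63). *CIDEC* is itself a member, and *DGAT2* makes the last step of triacylglycerol synthesis. The genes nearest to *PLIN2* were *NAAA* (0.38), *OSTF1* (0.39), *ABHD2* (0.42), *COL6A1* (0.42) and *MATN2* (0.43). The genes nearest to *PLIN5* were *SLC22A23* (0.31), *PFKFB3* (0.32), *PDE4B* (0.34), *PROSER2* (0.35) and *FARP1* (0.36). Most of this likeness is the difference between the tissues, and with a pseudocount of 0.1 only 3 of the 5 genes for *PLIN1*, 2 for *PLIN2* and 0 for *PLIN5* stayed.

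The wider pathway was followed in 5 lists, of which no gene was called in the hyperinsulinemic monkey in either tissue. Counts of genes below 0 are to be read against all genes tested, of which 55.8% had a log2 difference below 0 in adipose tissue and 52.4% in muscle. They are also to be read beside the cell type markers of the same libraries. In adipose tissue the median was −0.61 over adipocyte markers (7 of 8 below 0), 0.78 over macrophage markers (0 of 8), 0.47 over fibroblast markers (1 of 5) and 1.5 over T and NK cell markers (0 of 3). Endothelial markers stood at −0.03 (3 of 5), smooth muscle markers at 0.20 (2 of 7) and muscle fiber markers at −3.39 (7 of 7). In muscle it was −3.98 over slow fiber markers (7 of 7 below 0), −1.19 over smooth muscle markers (7 of 7) and −1.06 over macrophage markers (5 of 5). Other markers in muscle lay nearer to all genes, with 0.01 for adipocytes (3 of 7 below 0), 0.06 for muscle fibers (4 of 9) and 0.06 for fast fibers (2 of 5). Fibroblast markers stood at −0.14 (4 of 5) and endothelial markers at −0.21 (2 of 4). No marker was called, and the part of these in the lists was not tested.

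Of the hormone and cyclic AMP arm that starts lipolysis 13 of 16 genes tested had a log2 difference below 0 in adipose tissue, with a median of −0.26, against −0.06 over all genes tested. The beta-3 receptor *ADRB3*, the classic receptor of rodent fat cells, had 0 reads in every muscle library and 4.65 RPKM in adipose tissue of the hyperinsulinemic monkey, within the 1.14 to 26.0 RPKM of the controls. *PRKAR2B*, the regulatory subunit of protein kinase A in fat cells, stood at −1.29, *NPR1*, the natriuretic peptide receptor, at −1.06 and the adenylate cyclase *ADCY5* at −0.73 in adipose tissue. In muscle 6 of 11 genes were below 0 and the median was −0.24, with *NPR1* at −1.03 (2.41 RPKM in the hyperinsulinemic monkey and 3.26 to 5.28 RPKM in the controls), *ADCY6* at −0.85, *PRKACA* at −0.43 and *PRKAR1A* at 0.57.

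The insulin arm that restrains lipolysis had all 11 genes tested below 0 in adipose tissue, with a median of −0.47, and all 7 below 0 in muscle, with a median of −0.37. The medians of the adipocyte markers in adipose tissue and of the slow fiber markers in muscle, −0.61 and −3.98, were lower. Those of the macrophage markers in adipose tissue (0.78) and of the adipocyte and muscle fiber markers in muscle (0.01 and 0.06) were higher. With mapped totals as the scale, the median of all genes was 0.13 in adipose tissue and 0.14 in muscle, and 10 of the 11 genes were below 0 in adipose tissue and 6 of the 7 in muscle. Without control 4 it was 9 of 11 in adipose tissue, and without control 2 it was 10. With no filter 9 of 11 genes were below 0 in muscle. *IRS2*, a docking protein of the insulin receptor, was at 1.55 RPKM in adipose tissue of the hyperinsulinemic monkey and 2.03 to 4.28 RPKM in the controls (log2 difference −1.31, standard error 0.565), and at 0.995 RPKM in muscle and 1.31 to 1.94 RPKM in the controls (−0.84, standard error 0.456). *IRS1* was below all controls in both tissues in RPKM (−0.88 and −0.41). *ABHD15*, which stabilizes *PDE3B* in mouse fat cells, was at −0.90 in adipose tissue, and *AKT1* at −0.36 and *INSR* at −0.53 in muscle. Apart from *IRS2* in adipose tissue, with an unadjusted p of 0.0433, none of these had an unadjusted p below 0.05.

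**Figure D5:**
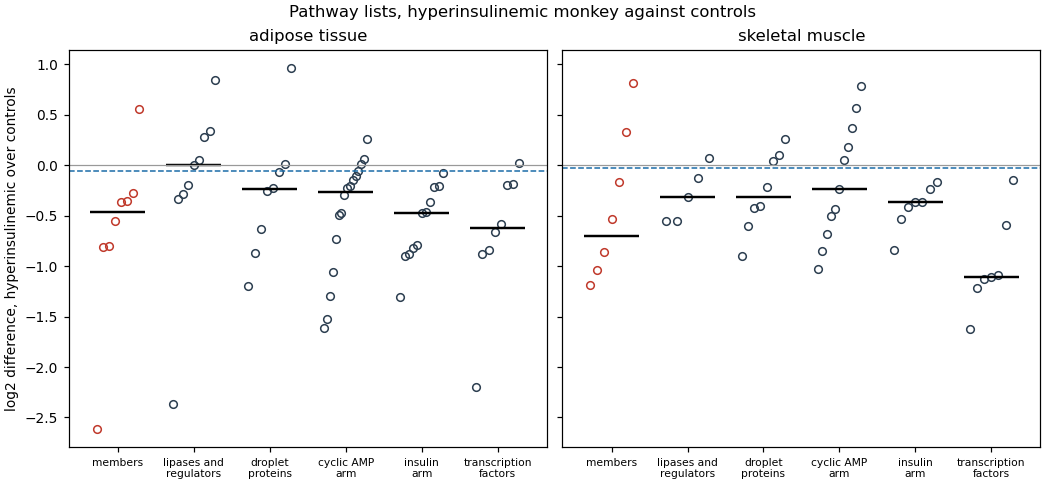
Log2 difference of the hyperinsulinemic monkey from the controls for each gene tested of the members (red circles) and of 5 pathway lists (dark circles), adipose tissue left and skeletal muscle right. Black lines are list medians and the dashed line is the median of all genes tested, −0.06 in adipose tissue and −0.03 in muscle. The insulin arm lies below 0 throughout in both tissues with TMM scaling, and not with mapped totals, and *PLIN5* in muscle, with 0 reads in the hyperinsulinemic monkey, enters the median but is not drawn.

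Transcription factors that act on these genes had 7 of 8 genes below 0 in adipose tissue, with a median of −0.62, and all 7 tested below 0 in muscle, with a median of −1.10, the lowest median of the 5 lists. In the same libraries the adipocyte markers stood at a median of −0.61 in adipose tissue, and the smooth muscle and macrophage markers at −1.19 and −1.06 in muscle. Not all markers in muscle were that low, with medians of 0.01 for adipocyte, 0.06 for muscle fiber, −0.14 for fibroblast and −0.21 for endothelial markers. With mapped totals 6 of 8 factors were below 0 in adipose tissue and 6 of 7 in muscle. *PPARG*, the master factor of fat cells, was at 62.7 RPKM in adipose tissue of the hyperinsulinemic monkey and 69.6 to 123 RPKM in the controls (log2 difference −0.88, standard error 0.495), and its coactivator *PPARGC1A* at 0.513 RPKM and 0.554 to 4.30 RPKM (−2.20, standard error 1.03). *CEBPA* stood at −0.67 and *PPARA* at −0.84 in adipose tissue. In muscle *PPARA*, the fatty acid sensor that drives fat oxidation genes, was at 1.07 RPKM in the hyperinsulinemic monkey and 1.88 to 2.31 RPKM in the controls (−1.12, standard error 0.394, unadjusted p = 0.0182, edgeR adjusted p = 0.496). *SREBF1*, a factor of fatty acid synthesis, was at 3.02 RPKM and 3.57 to 16.1 RPKM (−1.63, standard error 0.715), *FOXO1* at −1.09 and *CEBPA* at −1.10.

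Of the other lipases and lipase regulators 5 of 9 were below 0 in adipose tissue, with a median of −0.0002, *PNPLA3* at −2.36 (0.833 RPKM in the hyperinsulinemic monkey and 0.556 to 6.37 RPKM in the controls), *PNPLA4* at 0.85, *ABHD12* at 0.34 and *PNPLA8* at −0.34. Of the other droplet proteins 6 of 8 were below 0, with a median of −0.24, the triacylglycerol-making enzymes *DGAT1* at −1.19 (17.8 RPKM in the hyperinsulinemic monkey and 23.0 to 51.6 RPKM in the controls) and *DGAT2* at −0.87 (430 RPKM and 449 to 953 RPKM), *PLIN3* at 0.96 and *LDAH* at −0.63. In muscle 4 of 5 lipases and regulators and 5 of 8 droplet proteins were below 0, with a median of −0.31 each. *ABHD12* and *DAGLB* stood at −0.55 each, the row named *FABP4* at −0.31 and *ABHD6* at −0.13. Among the droplet proteins *AUP1* stood at −0.41, *CAV1* at −0.60, *PLIN3* at −0.90 and *BSCL2* at 0.26. None of these had an unadjusted p below 0.05.

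Between adipose tissue and muscle of the controls the same lists split by gene. Of all genes tested 29.3% were called higher in adipose tissue and 21.6% higher in muscle, 50.9% in all, and with 8 to 16 genes a list the shares below are a description. Of 8 droplet proteins 6 were called higher in adipose tissue and 1 in muscle, led by *CAV1* (log2 difference 3.26), *DGAT2* (5.53), *HSD17B11* (2.87) and *LDAH* (3.03). Of 9 lipases and regulators 5 were called higher in adipose tissue and 2 in muscle. Here the glycerol channel *AQP7* (2.29), *ABHD12* (1.06) and *CES1* (2.60) were higher in adipose tissue, *ABHD12* without passing the limit of 1 when control 1 or 2 was left out (0.92 and 0.86). The row that the name table gives as *FABP4*, the fatty acid carrier of fat cells, went against its name, with 1.71 RPKM in adipose tissue and 42.9 RPKM in muscle of the controls (−6.09). Of 16 genes of the cyclic AMP arm 9 were called higher in adipose tissue and 4 in muscle. *PRKAR2B* was at 115 RPKM in adipose tissue and 0.40 RPKM in muscle (6.76), *GNAI1* at 4.25 and *NPR1* at 2.62, while the catalytic subunit *PRKACA* was at −2.41. Of 11 genes of the insulin arm 5 were called higher in adipose tissue and 4 in muscle, with *PIK3R1* at 3.64 and *ABHD15* at 3.80 against *IRS1* at −1.90. Of 8 transcription factors 3 were called higher in adipose tissue, *PPARG* (4.81), *CEBPA* (3.59) and *FOXO1* (1.43), and 1, *RXRA* (−2.54), in muscle. Scaled to the mapped totals the genes called higher in muscle came to 0 of the droplet proteins, 1 of the lipases and regulators, 0 of the cyclic AMP arm, 0 of the insulin arm and 1 of the transcription factors, with *PRKACA* at −0.98 and *IRS1* at −0.48, and every named difference above kept its sign.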

How the data were processed

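Per the labels, poly(A) RNA with an RNA integrity number above 7.5 was made into strand-specific dUTP libraries and, per the paper's methods, sequenced and mapped with Tophat, with only uniquely mapped reads used. The submitters' processing notes name TopHat 1.2.0, and the paper another release. How reads were counted, on which build and annotation, is not given in the sources used here. The authors deposited, per library, a count of reads and an RPKM for each of 28595 Ensembl genes. The deposited RPKM were made by the authors from these counts, and equal reads over the length of the longest transcript and the mapped total (largest relative deviation under 1e-06). No other sample columns were present.

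Counts were tested with edgeR 4.0.16 (R 4.3.3), quasi-likelihood F test, TMM scaling, over genes that averaged 1 RPKM or more, adjusted by Benjamini-Hochberg over all genes tested. The hyperinsulinemic monkey was compared with the 4 controls per tissue, the 2 effects by an interaction term over genes at 1 RPKM in both tissues, and the tissues within the controls over genes at 1 RPKM in either. Its single library had to borrow the spread of the controls. Nothing says that libraries were repeated, so the spread is that between animals, 1 library each. The tissues share animals by their labels, but same-animal deviations correlated by only −0.21 to 0.15 across genes. DESeq2 1.42.0, other scalings and filters, leaving out animals and the animal as replicate block were alternatives. Scripts were tested on simulated data. RPKM of single members were compared by exact permutation of libraries, which between tissues did not use the pairing by animal. Standard errors of log2 differences were worked back from edgeR's log2 difference and F value, and intervals (95%) from these with a t distribution. Both are approximate and include edgeR's estimate of the spread between libraries. Poisson intervals (95%) of read counts and floors (3 reads) cover counting error only.

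Symbols came from an Ensembl name table (54.4% of genes). Of genes sharing a symbol, that of highest mean RPKM was taken. Named are the members, up to 4 genes per pathway list with the smallest p in a comparison, defining markers, and the 5 genes nearest in profile to *PLIN1*, *PLIN2* and *PLIN5*. *ADRB3*, *PLIN3* beside *PLIN4*, *CD68* beside *PDE3B*, and *ADIPOQ* ratios other than those of *PLIN1* and *CIDEC* were added after values were seen. The members and lists were chosen with earlier results of these data known. List lengths were 13 for lipases and regulators, 16 for droplet proteins, 21 for the cyclic AMP arm, 13 for the insulin arm and 8 for transcription factors, of which 9, 9, 17, 11 and 8 were matched. Some genes that this rule names are not reported here. *G0S2* and *HILPDA* were not analysed here, so no ratio of *PNPLA2* to *G0S2* was made.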

Additional observations from a re-analysis of the deposited data

Results flagged for a closer look

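Among 18 sets of 4 control values (9 members in 2 tissues), 1 held a library far from the others. *PLIN4* in muscle was at 41.9 RPKM in control 1 and at 23.8 to 26.7 RPKM in the other 3 controls, a gap of 0.837 of the whole range. Chance alone flags about 1 in 20 such sets. The same animal was also the highest of the 5 for *PLIN4* in adipose tissue.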

How the results depend on the processing

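Of 319 values of single members under the alternatives, 306 kept their direction and side of the threshold, 8 turned in direction and 5 fell short of the threshold. Of the other named genes 768 kept both, 7 turned and 4 fell short, and of shares and list counts 133 kept their size and 30 moved. None of the values that turned had passed a test. In muscle *PLIN2* turned to 0.0200 and *ABHD6* to 0.0460 with mapped totals, and leaving out 1 control gave −0.47 to 0.55 for *PLIN2* and −0.29 to 0.0110 for *ABHD6*. In adipose tissue leaving out 1 control gave −0.58 to 0.12 for *PLIN2* and −0.44 to 0.18 for *CIDEC*. For the difference between tissues it gave −0.42 to 0.0715 for *PLIN2*, −0.15 to 1.36 for *CIDEC* and −0.16 to 0.23 for *AQP7*, and dropping the 2 adipose libraries high in *ACTA1* (controls 1 and 3) gave −0.0370 for *LIPE*, 0.16 for *PLIN2* and −0.11 for *AQP7*. *AQP7*, at 0.02, was also −0.0301 with mapped totals and −0.0355 with no filter.

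The number of genes called in muscle, 0, became 1 with median-of-ratios scaling, 3 with mapped totals, 10 with no filter and 88 with DESeq2, and 0 to 14 when 1 control was left out (14 without control 3). In adipose tissue 0 became 11 with DESeq2, 33 on dropping those 2 libraries, and 0 to 6 when 1 control was left out (6 without control 1). For the difference between tissues DESeq2 called 16. Members called stayed at 0 in all of these. Between tissues of the controls 6237 genes became 4151 at a mean of at least 5 RPKM, with fewer genes tested, and the members called were 7 to 9 when 1 control was left out. The cause of the other changes was not tested. With the animal as replicate block 6148 genes were called between tissues and 0 for the difference between tissues, *AQP7* for that difference stood at −0.0174, and no member changed its call.

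The limits are 1 hyperinsulinemic animal, the few reads of *PLIN5* in both tissues and of *PLIN2* and *PDE3B* in muscle, and the short models of *PLIN2* and *PLIN5*. *PLIN5* in muscle could not be fitted without control 1, since its mean then lay under 1 RPKM, and the members below 5 RPKM dropped out at the higher filter.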
